A study of Rattus norvegicus with 12 samples.

Results

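The genes described here are those of the rat major histocompatibility complex (MHC, called RT1 in the rat) together with the proteins that cut, carry and load antigen peptides. They were taken as every probe set annotated to exactly 1 gene symbol beginning with RT1-, or to B2m, Cd74, Ciita, Tap1, Tap2, Tapbp, Psmb8, Psmb9, Psmb10, Psme1, Psme2 or Nlrc5. This gave 47 probe sets for 30 genes, of 31042 probe sets tested in all. Class I had 33 probe sets for 22 genes, made up of 20 for 12 heavy chain genes and 13 for 10 genes of the processing and loading machinery. Class II had 14 probe sets for 8 genes, made up of 11 for 6 chain genes and 3 for Cd74 and Ciita. A further 6 probe sets carried several RT1 symbols and were not members.

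RNA of rat heart tissue was measured on 1-colour 3' expression arrays with biotin-labelled cRNA, 1 array for each heart; the tissue field and the extraction protocol of the labels give heart, but their description field names a cell line instead. Failing hearts (6) were compared with control hearts (6), described in the protocol as biological replicates. The 2 further groups it names, failing hearts given captopril alone or with butyrate, are not analysed here. The model is the spontaneously hypertensive rat (SHR), a strain bred for high blood pressure, as it passes from a thickened but compensated heart to systolic failure. For the controls neither strain nor age is stated in the labels, nor is the age of the failing animals or the part of the heart taken, so a difference of strain or age between the groups cannot be told apart from failure.

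MHC class I molecules consist of a heavy chain held by beta-2 microglobulin (B2m) and sit on nearly all nucleated cells. Their peptides are cut in the cytosol by the proteasome, whose inducible subunits form the immunoproteasome, and pumped into the endoplasmic reticulum by the Tap1-Tap2 transporter. MHC class II molecules are pairs of an alpha and a beta chain, found mainly on macrophages, dendritic cells and B cells; the invariant chain Cd74 blocks their groove until RT1-DM exchanges its last fragment for a peptide, and the co-activator Ciita drives transcription of the whole class II group.

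Intensities had been scaled alike on every array, with a trimmed mean between 500.191 and 500.228 and a median between 120.8 and 144.2. Spearman correlations between arrays ran from 0.915 to 0.945, and precision is limited by having 6 arrays a group. On the first principal component of the brighter probe sets (32.8% of the variance), control replicate 4, at 13.51, lay on the side of 5 failing hearts, and failing replicate 5, at -7.25, on the side of the other controls. Control replicate 4 also stood apart in lymphocyte genes. Natural killer and cytotoxic markers Klrb1a, Klrd1, Nkg7 and Gzmb were at 12.49, 12.18, 12.16 and 12.31 there (log2 intensity), against at most 6.60, 6.58, 7.01 and 6.61 in any other heart. Markers of heart muscle were bright in both groups, and the dimmest of 8, Ryr2, averaged 14.12 over the 12 hearts. Their summed linear intensity ran from 231614 to 354642 in failing and from 223527 to 370105 in control hearts. It was lowest in control replicate 4, followed by failing replicate 3. For several members the difference is given with and without control replicate 4. Differences of genes in the pathway and marker lists are given with all 12 hearts only.

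Of the 47 probe sets, 33 belonged to the brighter 15521, those with a mean log2 intensity over the 12 hearts of at least 6.938 (intensity 122.6). They comprised 24 of class I and 9 of class II. In the limma fit over all 31042 probe sets no member passed an adjusted p of 0.05, and neither did any other probe set (0% called, lowest adjusted p = 0.1001). In the fit over the brighter probe sets, 4.25% were called, 2.76% higher and 1.48% lower in failing hearts. There, 3 members rose, RT1-DMa of class II and B2m and Tap2 of class I, and 0 fell. That is 1 of 9 class II probe sets (11.1%) and 2 of 24 of class I (8.33%), counts too small to be read as a share above the 2.76%. At an unadjusted p under 0.05, which 7.25% of all probe sets met as higher and 7.23% as lower, class II had 3 higher and 0 lower of 14, and class I had 2 higher and 2 lower of 33, against 14.5% in either direction. Errors given below as ± after a difference are standard errors of the fit over all probe sets, and differences are failing minus control on the log2 scale.

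The medians of class II and class I lay on opposite sides of 0, though each class had members on both sides. Of the 14 class II probe sets 10 had a difference above 0, with a median of 0.17, and among the 9 brighter ones the median was 0.62. Of the 33 class I probe sets 11 were above 0, with a median of -0.16 (-0.057 among the 24 brighter). Over all probe sets the median was -0.024 and 47.4% were above 0. Leaving out single hearts moved the class II median between 0.11 (without failing replicate 6) and 0.51 (without failing replicate 5), and the class I median between -0.20 (without control replicate 2) and -0.071 (without failing replicate 1). Without control replicate 4 they were 0.20 and -0.077, and the same counts of 1 and 2 members were called higher, in a fit that called 6.67% of brighter probe sets higher and 6.75% lower. The difference between the classes was not tested.

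**Figure D1:**
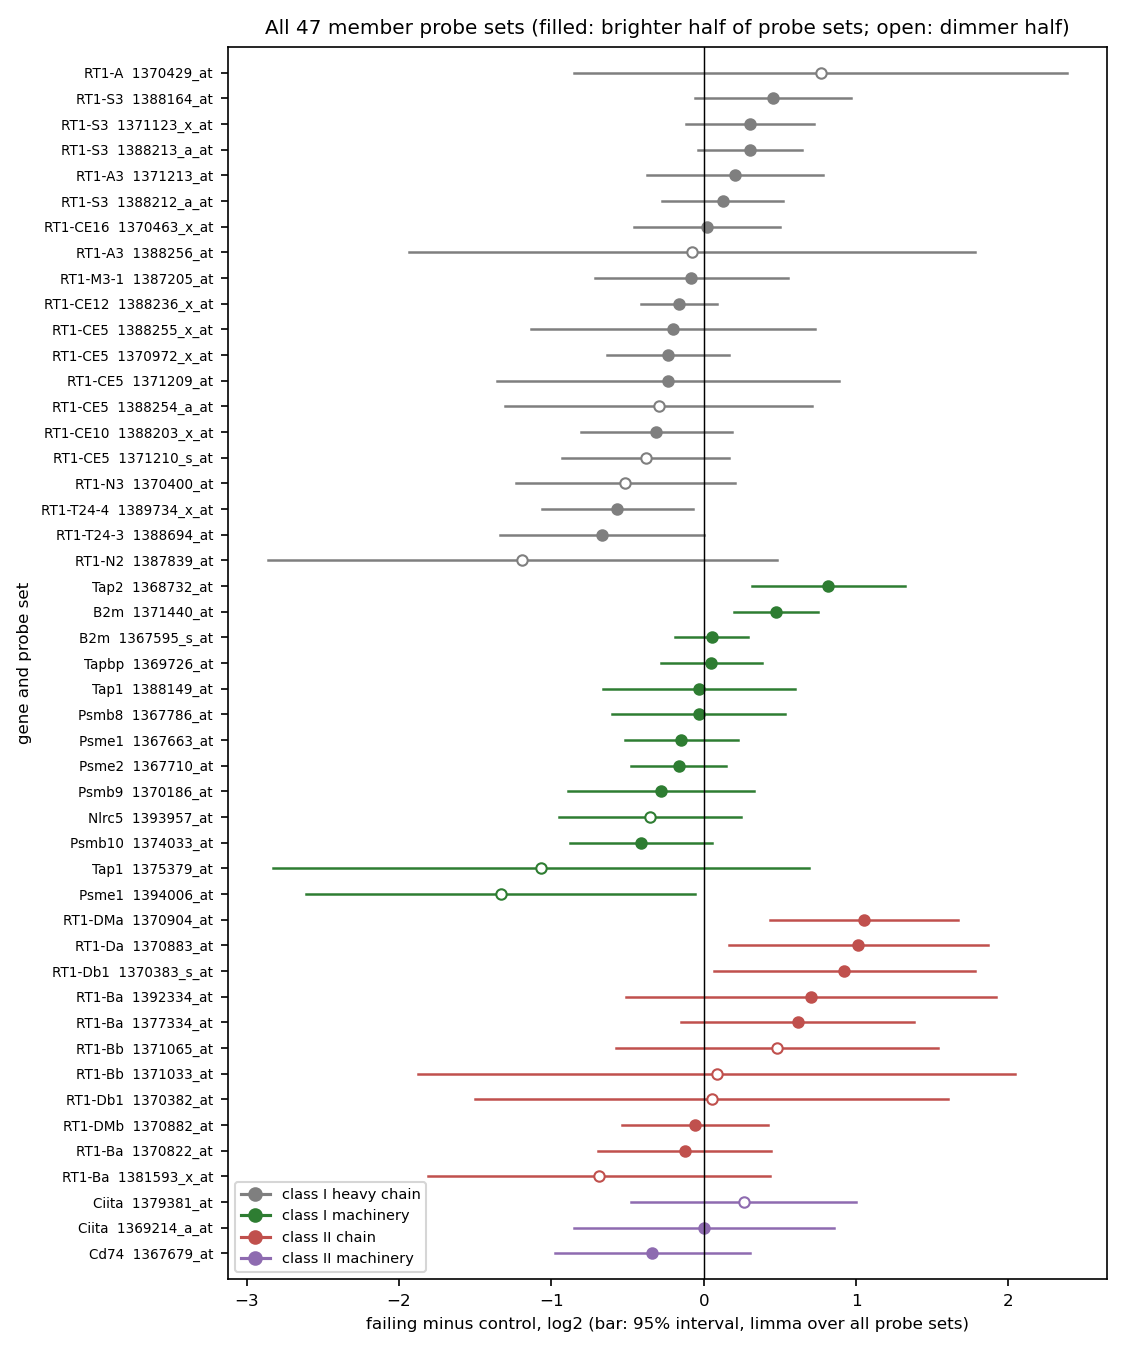
Difference between failing and control hearts (x axis, log2, with the 95% interval of the limma fit over all probe sets) for each of the 47 probe sets (y axis), coloured by role; filled points are the 33 brighter probe sets and open points the dimmer ones. RT1-DMa, RT1-Da and RT1-Db1 lie near 1, Tap2 and B2m 1371440_at also lie above 0 with their whole interval, and most heavy chain intervals cross 0.

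RT1-DMa, the alpha chain of the peptide exchanger, rose 2.07-fold in failing hearts, from 7.31 ± 0.47 in control to 8.36 ± 0.54 (log2 intensity, SD, n = 6 each). The failing hearts stood at 7.56, 8.33, 9.12, 8.72, 8.03 and 8.37 (replicates 1 to 6) and the controls at 6.65, 7.97, 7.68, 7.32, 7.22 and 6.999. Failing hearts other than replicate 1 were above every control, and replicate 1 lay between the controls. The difference was 1.05 ± 0.28 (limma, adjusted p = 0.0425 among the brighter probe sets and 0.161 over all). It was 1.05 without control replicate 4 (adjusted p = 0.0312). The call held when failing replicates 1 or 5, or control replicates 2 or 4, were left out, and was lost without each of the other 8 hearts in turn, with adjusted p from 0.0593 to 0.0972 and differences from 0.90 to 1.13. RT1-DMb, the beta chain of the same exchanger, was at 10.06 ± 0.35 in control and 10.004 ± 0.41 in failing hearts, a difference of -0.06 ± 0.22 (95% interval -0.53 to 0.42).

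RT1-Da, the alpha chain of the classical class II molecule RT1-D, was at 10.50, 11.91, 12.57, 11.93, 10.19 and 11.34 in failing replicates 1 to 6 and at 10.24, 10.46, 10.78, 9.69, 10.81 and 10.37 in control replicates 1 to 6. Replicates 2, 3, 4 and 6 of the failing group were above every control, while replicates 1 and 5 lay within the control range. The difference was 1.01 ± 0.39, a 2.02-fold higher mean, with an unadjusted p of 0.0232 that did not pass adjustment (adjusted p = 0.106 among the brighter probe sets). Its partner RT1-Db1, the RT1-D beta chain (1370383_s_at), showed the same hearts high: 9.07, 10.16, 10.93, 10.29, 8.55 and 9.86 in failing replicates 1 to 6, against 8.70, 9.08, 9.53, 8.03, 9.26 and 8.73 in controls. The RT1-Db1 difference was 0.92 ± 0.39, or 1.90-fold (unadjusted p = 0.0370, adjusted p = 0.134). Without failing replicate 5 both passed, RT1-Da at 1.26 (adjusted p = 0.0309) and RT1-Db1 at 1.18 (adjusted p = 0.0377), in a fit that called 5.18% of brighter probe sets higher and 4.25% lower. Over the 12 fits that leave out 1 heart, the share of brighter probe sets called higher ran from 0.129% (without control replicate 6) to 6.67% (without control replicate 4). Without failing replicate 3, the heart highest in both, they were 0.78 and 0.70 (adjusted p = 0.207 and 0.262). Without control replicate 4, the lowest heart in both, they were 0.87 and 0.75 (adjusted p = 0.122 and 0.170).

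RT1-Ba and RT1-Bb encode the chains of the other classical class II molecule, RT1-B. The brightest RT1-Ba probe set, 1377334_at, was at 10.03 ± 0.33 in control and 10.65 ± 0.84 in failing hearts (0.62 ± 0.35, adjusted p = 0.248). Failing replicate 3 was the highest of all hearts at 11.91 and failing replicate 5 the lowest at 9.48, next to control replicate 4, also at 9.48. The other RT1-Ba probe sets did not give 1 direction: 1392334_at differed by 0.70 ± 0.56, 1370822_at by -0.12 ± 0.26 and the dimmer 1381593_x_at by -0.69 ± 0.51. RT1-Bb was dim on both its probe sets, with means over all hearts of 6.36 and 4.60 and differences of 0.48 ± 0.48 and 0.08 ± 0.90. A dim second probe set of RT1-Db1 differed by 0.05 ± 0.71. Failing replicate 3 was the highest of the 12 hearts in 5 of the 7 brighter class II chain probe sets, and control replicate 4 the lowest in 3.

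**Figure D2:**
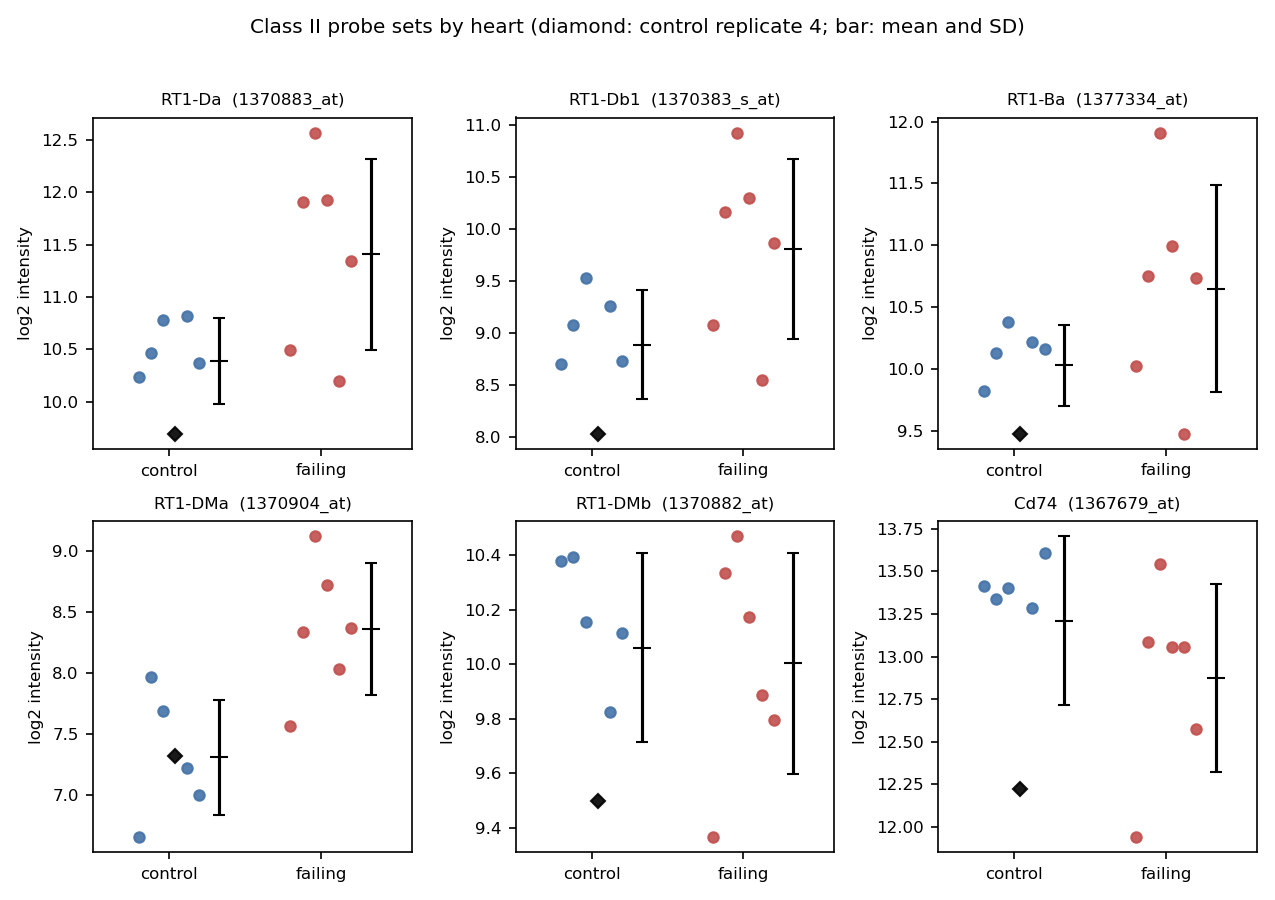
Log2 intensity (y axis) of 6 class II probe sets in each control and failing heart (x axis), with group mean and SD as bars and control replicate 4 as a diamond. RT1-Da, RT1-Db1 and RT1-Ba share the same high failing hearts (2, 3, 4 and 6) and low ones (1 and 5). The groups overlap in every panel, and in RT1-DMb and Cd74 the failing mean is below the control mean.

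Cd74, the invariant chain, was at 11.94, 13.09, 13.55, 13.06, 13.05 and 12.57 in failing and at 13.41, 13.34, 13.40, 12.22, 13.29 and 13.61 in control hearts (replicates 1 to 6). The groups overlapped, with failing replicate 1 lowest and control replicate 6 highest, and the difference was -0.34 ± 0.29 (adjusted p = 0.460). Without control replicate 4, the second lowest heart, it was -0.53 (adjusted p = 0.128), so the value rests in part on that heart. Ciita, the class II co-activator, was near the brightness limit on both probe sets; 1369214_a_at was at 6.95 ± 0.93 in control and 6.95 ± 0.38 in failing hearts, a difference of 0.00 ± 0.39 whose sign changed under 7 of 19 alternative settings, and 1379381_at differed by 0.26 ± 0.34.

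Cd74 and the RT1-D chains had differences of opposite sign. The gap between 2 probe sets within a heart does not depend on how an array was scaled; the pairs given here were chosen after the values were seen, so they are a description with no test. RT1-Da minus Cd74 was -1.44, -1.18, -0.98, -1.13, -2.86 and -1.23 in failing replicates 1 to 6 and -3.18, -2.87, -2.63, -2.53, -2.47 and -3.24 in controls, so 5 of 6 failing hearts lay above every control and failing replicate 5 lay among them. The group means were 1.35 apart (1.41 without control replicate 4). RT1-Db1 minus Cd74 had means 1.26 apart, again with 5 of 6 failing hearts above every control. RT1-DMa minus RT1-DMb ran from -2.00 to -1.35 in failing and from -3.73 to -2.18 in control hearts, so that the groups did not overlap. The means were 1.11 apart (1.22 without control replicate 4). RT1-DMa was called higher and RT1-DMb was not, so a difference between the groups was built into the choice of this pair. How many of all possible pairs of probe sets separate the groups was not counted. Failing replicate 1, which lay among the controls in RT1-Da itself at 10.50, also had the lowest Cd74 of all hearts. A level of one probe set against another has no meaning on this array, and only the change of such a difference between hearts is described.

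The promoters of the 4 class II genes with the largest differences in their brightest probe sets are shown because textbook class II regulation works through short boxes close to the start, among them the Y box, which holds a reversed CCAAT box. Each is the 160 bases before the annotated start, 5' to 3' on the gene's own strand, from the RefSeq promoter table of build GRCr8. RT1-Da is at chr20:4515255-4515414 (plus strand), RT1-Db1 at chr20:4560163-4560322 (minus strand), RT1-Ba at chr20:4576897-4577056 (plus strand) and RT1-DMa at chr20:4712336-4712495 (minus strand). Capitals mark the Y box CTGATTGG, the CCAAT box in either direction and 2 runs, found afterwards, that promoters share: CTAGCAAC in RT1-Da and RT1-Db1, and ACTGATGATG in RT1-Db1 and RT1-DMa, which overlap in RT1-Db1.
RT1-Da: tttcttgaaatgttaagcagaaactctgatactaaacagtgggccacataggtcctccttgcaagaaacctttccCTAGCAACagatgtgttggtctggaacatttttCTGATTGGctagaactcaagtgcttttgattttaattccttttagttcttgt
RT1-Db1: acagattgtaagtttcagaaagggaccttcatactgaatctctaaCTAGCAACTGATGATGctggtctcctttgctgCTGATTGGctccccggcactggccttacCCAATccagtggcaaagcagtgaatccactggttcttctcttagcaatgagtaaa
RT1-Ba: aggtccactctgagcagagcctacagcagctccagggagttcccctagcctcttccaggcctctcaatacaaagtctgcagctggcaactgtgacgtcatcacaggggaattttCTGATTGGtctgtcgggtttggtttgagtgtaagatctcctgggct
RT1-DMa: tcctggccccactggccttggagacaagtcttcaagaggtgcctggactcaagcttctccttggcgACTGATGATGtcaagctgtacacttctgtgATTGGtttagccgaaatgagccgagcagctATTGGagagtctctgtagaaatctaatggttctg
The Y box ended 45 bases before the start in RT1-Da, 76 in RT1-Db1 and 39 in RT1-Ba. RT1-DMa had no CTGATTGG but had reversed CCAAT boxes ending 60 and 30 bases before its start. Among the 5 class II chain promoters in the table, 4 held CTGATTGG (RT1-Ba, RT1-Bb, RT1-Da and RT1-Db1) and 5 held CCAAT on either strand, against 2.57% and 24.8% of all 33469 promoters cut to the same length; every CTGATTGG overlaps a CCAAT. CTAGCAAC was held by 257 and ACTGATGATG by 36 of the 33469. Promoters of RT1-DMb, Ciita, Nlrc5 and RT1-A had no match in the table. A match says that these letters are there in the reference build, not that a factor binds. Whether the animals measured carry the same letters was not tested.

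In class I, B2m, the light chain of every class I molecule, rose 1.39-fold on 1 of its 2 probe sets. On 1371440_at the failing hearts were at 13.33, 13.45, 13.29, 13.30, 13.23 and 13.36 and the controls at 12.75, 12.87, 13.06, 13.19, 12.64 and 12.60 (replicates 1 to 6). All failing hearts were above all controls, the nearest control being replicate 4. Groups without overlap and higher in failing hearts were found in 1 of the 47 members, this one, and in 0.989% of all probe sets; 0 members had groups without overlap in the other direction, against 0.535%. The difference was 0.48 ± 0.13 (limma, adjusted p = 0.0419 among the brighter probe sets, 0.160 over all); it was 0.54 without control replicate 4 (adjusted p = 0.0143). The call also held without failing replicate 5 and was lost without each of the other 10 hearts in turn, with adjusted p from 0.0548 to 0.0969 and differences from 0.42 to 0.52. The other B2m probe set, 1367595_s_at, was at 14.99 ± 0.11 in control and 15.04 ± 0.15 in failing hearts, a difference of 0.05 ± 0.11 (95% interval -0.19 to 0.29). The 2 probe sets of this gene therefore disagree. Whether the high brightness of 1367595_s_at limits its response was not tested. The gap 1371440_at minus 1367595_s_at within a heart is also a pair chosen after the values were seen. It ran from -1.92 to -1.44 in failing and from -2.38 to -1.63 in control hearts, with 1 failing heart above every control. The group means were 0.42 apart (0.52 without control replicate 4).

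Tap2, the second chain of the peptide transporter, rose 1.76-fold, from 7.29 ± 0.45 in control to 8.10 ± 0.34 in failing hearts. Failing replicates 1 to 6 were at 7.58, 8.15, 8.40, 7.90, 8.53 and 8.06 and the controls at 6.62, 7.09, 7.28, 7.92, 7.19 and 7.63. Failing hearts other than replicates 1 and 4 lay above every control, and the highest control was again replicate 4. The difference was 0.82 ± 0.23 (adjusted p = 0.0473 among the brighter probe sets, 0.169 over all) and 0.94 without control replicate 4 (adjusted p = 0.0155). The call held without failing replicate 1 or control replicate 4 and was lost without each of the other 10 hearts, with adjusted p from 0.0508 to 0.107 and differences from 0.68 to 0.89. Tap1, the first transporter chain, was not called: 1388149_at was at 8.16 ± 0.45 in control and 8.13 ± 0.58 in failing hearts (-0.03 ± 0.29, adjusted p = 0.957). Control replicate 4 was its highest heart, and without it the difference was 0.12 (adjusted p = 0.767). A dim Tap1 probe set, 1375379_at, differed by -1.07 ± 0.80. Tap2 minus Tap1 within a heart, a pair chosen after the values were seen, ran from -0.73 to 0.48 in failing and from -1.03 to -0.44 in control hearts, with means 0.85 apart (0.82 without control replicate 4). Tapbp, which bridges Tap and the empty class I molecule, was at 9.67 ± 0.27 in control and 9.72 ± 0.20 in failing hearts. The Tapbp difference was 0.05 ± 0.15 (95% interval -0.28 to 0.38), and 0.12 without control replicate 4, the highest heart.

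The B2m and Tap2 promoters are shown for the other kind of box of this system, the interferon-stimulated response element, searched as its core GAAANNGAA on both strands. B2m is at chr3:129549170-129549329 (plus strand) and Tap2 at chr20:4652297-4652456 (minus strand), 160 bases before the start in build GRCr8; capitals mark that core and, in B2m, a reversed CCAAT box.
B2m: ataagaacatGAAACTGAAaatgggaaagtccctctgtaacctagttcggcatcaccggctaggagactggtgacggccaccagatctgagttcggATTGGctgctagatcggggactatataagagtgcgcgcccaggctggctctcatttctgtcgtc
Tap2: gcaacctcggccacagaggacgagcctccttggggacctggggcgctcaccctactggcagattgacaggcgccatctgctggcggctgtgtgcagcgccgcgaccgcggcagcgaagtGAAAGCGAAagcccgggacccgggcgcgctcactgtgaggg
The core lay 150 to 142 bases before the start in B2m and 41 to 33 in Tap2. It was found in 6 of 9 promoters of the class I machinery (B2m, Psmb10, Psme2, Tap1, Tap2 and Tapbp), 1 of 11 heavy chain promoters (RT1-S3) and 0 of 5 class II chain promoters, against 5.1% of all promoters. CTGATTGG was in 4 of 11 heavy chain and 0 of 9 machinery promoters, and the kappa B site GGGATTCCC in 1 heavy chain promoter (RT1-CE16) against 0.176% of all. The core was thus present in the reference promoters of genes whose probe sets differed by 0.82 (Tap2) and by -0.41 (Psmb10). On GRCr8 the RT1-Ba, RT1-Bb, RT1-DOb, Tap2, Psmb8, Tap1, Psmb9, RT1-DMb and RT1-DMa genes follow each other in that order on chromosome 20, so Tap2 and RT1-DMa, which rose, flank Psmb8, Tap1, Psmb9 and RT1-DMb, whose brightest probe sets differed by -0.28 to -0.03. Without control replicate 4 these differences were 0.19 (Psmb8), 0.12 (Tap1), -0.10 (Psmb9) and -0.17 (RT1-DMb), so their common sign rests on that heart.

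The immunoproteasome genes Psmb8, Psmb9 and Psmb10, which replace the catalytic subunits of the standard proteasome, had no call. Psmb8 was at 9.26, 9.84, 9.996, 9.66, 9.66 and 9.18 in failing and at 9.26, 9.40, 9.41, 10.77, 9.43 and 9.53 in control hearts (replicates 1 to 6). Control replicate 4 was the highest heart, and the difference changed from -0.03 ± 0.26 to 0.19 without it (adjusted p = 0.950 and 0.391). Psmb9 was at 9.87 ± 0.45 in control and 9.59 ± 0.54 in failing hearts, -0.28 ± 0.28, and -0.10 without that heart, which stood at 10.76. Psmb10 was at 9.28 ± 0.48 in control and 8.87 ± 0.18 in failing hearts, -0.41 ± 0.21 (adjusted p = 0.207), and -0.22 without that heart, at 10.24. Of the proteasome activator, Psme1 (1367663_at) was at 13.44 ± 0.28 in control and 13.29 ± 0.26 in failing hearts (-0.15 ± 0.17), and Psme2 at 11.14 ± 0.21 and 10.97 ± 0.22 (-0.17 ± 0.14, and -0.086 without control replicate 4). A dim second Psme1 probe set, 1394006_at, was at 5.91 ± 1.13 in control and 4.58 ± 1.03 in failing hearts (-1.33 ± 0.58, with an unadjusted p of 0.0419 and an adjusted p of 0.322). Nlrc5, the class I counterpart of Ciita, was dim, at 6.97 ± 0.62 in control and 6.62 ± 0.30 in failing hearts; the difference was -0.35 ± 0.27, or -0.16 without control replicate 4. That heart was the highest of all 12 in 6 of the 10 brighter machinery probe sets.

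**Figure D3:**
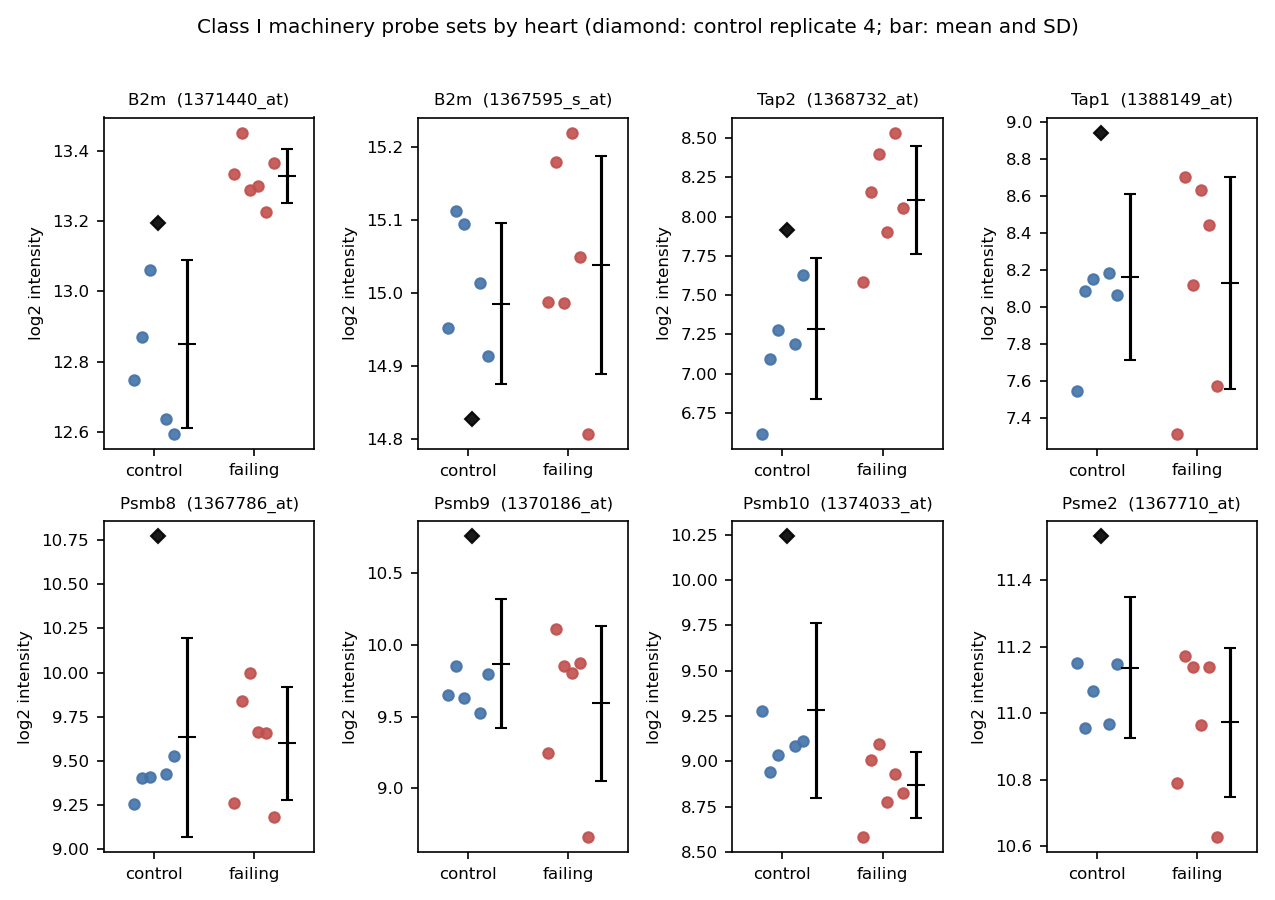
Log2 intensity (y axis, each panel on its own range) of 8 probe sets of the class I machinery in each control and failing heart (x axis), with group mean and SD as bars and control replicate 4 as a diamond. The B2m 1371440_at groups do not overlap, and control replicate 4 is the highest heart for Tap1, Psmb8, Psmb9, Psmb10 and Psme2.

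In the fit over the 15521 brighter probe sets, none of the 14 that belong to class I heavy chains was called in either direction (1 was lower at an unadjusted p under 0.05, RT1-T24-4). Heavy chain genes are many, near-identical copies, and 7 of the 20 probe sets carry the x_at suffix that marks probes likely to bind several transcripts, so the gene named is uncertain. RT1-T24-4 (1389734_x_at), a non-classical heavy chain gene, was at 7.68 ± 0.47 in control and 7.11 ± 0.30 in failing hearts, -0.57 ± 0.23 (unadjusted p = 0.0286, adjusted p = 0.118). Its failing hearts stood at 7.01, 7.61, 7.16, 7.09, 7.08 and 6.69 and its controls at 7.73, 7.15, 7.53, 7.20, 8.20 and 8.24 (replicates 1 to 6), so 4 failing hearts lay below every control and replicates 2 and 3 among them. The related RT1-T24-3 was at 10.76 ± 0.35 and 10.09 ± 0.70, -0.67 ± 0.31 (adjusted p = 0.162), with 3 failing hearts below every control. All 4 RT1-S3 probe sets were among the brighter ones and above 0, from 0.12 ± 0.18 (1388212_a_at, 9.96 ± 0.21 in control and 10.09 ± 0.37 in failing hearts) to 0.46 ± 0.23 (1388164_at, adjusted p = 0.204). Failing replicate 3 was the highest heart in 3 of these 4 and failing replicate 6 in 1388164_at. All 5 RT1-CE5 probe sets were below 0, from -0.38 to -0.20, and the brightest, 1370972_x_at, was at 8.40 ± 0.22 in control and 8.17 ± 0.37 in failing hearts; but 1371209_at and 1388255_x_at turned to 0.02 and 0.08 without control replicate 4.

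The remaining heavy chains gave smaller or less certain values. RT1-CE16 (1370463_x_at) was at 9.94 ± 0.44 in control and 9.96 ± 0.31 in failing hearts, a difference of 0.02 ± 0.22. The RT1-CE16 difference was 0.14 without control replicate 4, the highest heart. RT1-CE12 was at 10.48 ± 0.15 in control and 10.31 ± 0.14 in failing hearts (-0.16 ± 0.11), with 3 failing hearts below every control. RT1-CE10 was at 7.30 ± 0.24 and 6.99 ± 0.50 (-0.31 ± 0.23). RT1-M3-1, whose mouse counterpart presents formylated peptides, was at 8.58 ± 0.41 and 8.502 ± 0.61 (-0.08 ± 0.29, and 0.045 without control replicate 4, its highest heart). RT1-A3 was at 8.05 ± 0.48 and 8.25 ± 0.45 on 1371213_at (0.20 ± 0.26) and differed by -0.08 ± 0.85 on a dim probe set. The 3 heavy chain genes with dim probe sets alone ranged from -1.19 ± 0.76 (RT1-N2) to 0.77 ± 0.74 (RT1-A), with RT1-N3 at -0.52 ± 0.33. Control replicate 4 was the highest heart in 5 of the 14 brighter heavy chain probe sets and failing replicate 3 in 4.

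**Figure D4:**
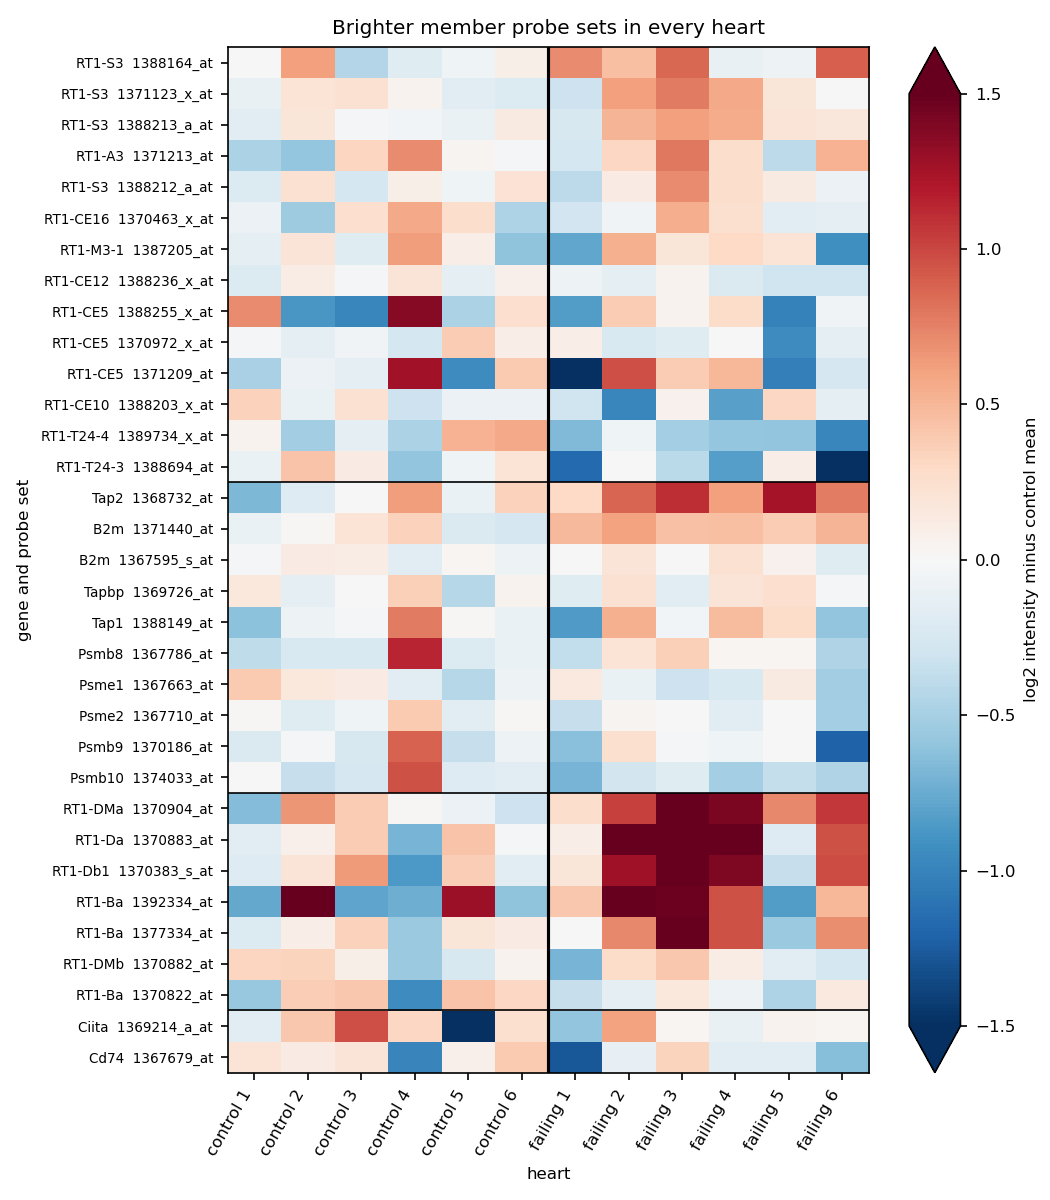
The 33 brighter probe sets (rows, grouped by role) in every heart (columns), coloured by log2 intensity minus the mean of the 6 controls and cut at -1.5 and 1.5. In the RT1-DMa, RT1-Da and RT1-Db1 rows the strongest red is in failing replicates 2, 3, 4 and 6, Tap2 and B2m 1371440_at are above the control mean in every failing heart, and control replicate 4 is red across the immunoproteasome rows and blue in the RT1-D and RT1-B rows.

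The wider pathways were read from lists chosen for this system, with the brightest probe set standing for each gene; among the 7109 brighter genes 10.1% were called, 5.40% higher and 4.73% lower. A list of 11 genes chosen for class II processing held proteases, a reductase and an inhibitor. Of these 6 rose, 0 fell, and all 11 differences were above 0. Whether each of them acts on class II peptides in these hearts was not tested. The lysosomal proteases cathepsin S (Ctss, which cleaves the invariant chain) and cathepsin K (Ctsk) differed most, by 1.23 ± 0.29 and 1.22 ± 0.26 (adjusted p = 0.0175 and 0.0159), and the thiol reductase Ifi30 by 0.51 ± 0.14 (adjusted p = 0.0305); Ctsl, Ctsb and the inhibitor Cst3 also rose. The interferon gamma list had 2 of 8 higher and 0 lower. The receptor chain Ifngr1 (0.73 ± 0.15, adjusted p = 0.0142) and the kinase Jak2 (0.88 ± 0.24, adjusted p = 0.0274) were higher. The other receptor chain Ifngr2 (0.16 ± 0.09, adjusted p = 0.230) and the kinase Jak1 (-0.11 ± 0.09, adjusted p = 0.434) were not called. None of the list's brighter target genes was called, with Irf1 at -0.53 ± 0.31, Gbp2 at -0.44 ± 0.26 and the chemokine Cxcl11 at -0.77 ± 0.33 (adjusted p = 0.217, 0.229 and 0.106). Control replicate 4 was the highest heart in Irf1, at 10.01 against at most 9.37 elsewhere. Interferon gamma itself was dim. Of 5 brighter genes of the class II transcription complex, the co-activator Crebbp rose by 0.43 ± 0.12 (adjusted p = 0.0352) and Nfyc, a chain of the CCAAT-binding factor, fell by 0.36 on the log2 scale (adjusted p = 0.0382).

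The class I partners in the endoplasmic reticulum had 0 of 6 called in either direction; the smallest p was that of Pdia3, which helps to load the molecule (0.31 ± 0.12, adjusted p = 0.0870). The constitutive proteasome core had 0 of 13 called (2 lower at an unadjusted p under 0.05), though all 13 differences were below 0, with a median of -0.19; Psma5 had the smallest p (-0.20 ± 0.08, adjusted p = 0.106). None of the 5 measured T cell costimulation genes was among the brighter genes, and Cd86 had the smallest p there (0.71 ± 0.32, unadjusted p = 0.0439).

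Markers of cells that carry class II moved in part with these genes. Of 12 brighter macrophage markers 5 rose and 0 fell: Mrc1, Lyz2, C1qa, C1qb and C1qc, by 0.76 (Lyz2) to 1.09 (C1qb). Of all 16 markers 13 had a difference above 0. Those below 0 were Fcer1g (-0.07 ± 0.46) and the dim Adgre1 (-0.58 ± 0.47) and Ptprc (-0.66 ± 0.73). The summed linear intensity of all 16 macrophage markers was 23094.2 to 51944.3 in failing hearts and 16002.5 to 43079.3 in controls, where the top value was control replicate 4 and the next 24004.8. The same sum was lowest among failing hearts in replicates 5 and 1 (23094.2 and 26816.8), the replicates with the lowest RT1-Da. It was highest in replicates 3, 4 and 2 (51944.3, 49091.3 and 41686.0). A linear sum is weighted to its brightest gene, here Lyz2, with mean log2 intensities of 14.01 in failing and 13.26 in control hearts. No other marker of the list exceeded 11.77 and 11.32 there, so the order of hearts need not be that of the other markers. In control replicate 4, which had the lowest RT1-Da of all hearts (9.69), 22402.4 of the 43079.3 came from 5 genes that other leucocytes also express (Itgam, Tyrobp, Fcer1g, Ptprc and Laptm5, set apart after the values were seen). These 5 are the markers of the list that were highest in that heart. Setting them apart therefore lowers its sum by construction, and the split is a description with no test. The sum of the other 11 markers was 20676.9 in that heart, 13392.5 to 20487.7 in the other controls, 19953.5 in failing replicate 5 and 24305.1 to 44501.9 in the other failing hearts. Clec10a, the only brighter gene of the dendritic cell list, rose by 0.86 ± 0.28 (adjusted p = 0.0477). The dim genes of that list went both ways, with Flt3 at 1.79, Clec9a at 0.35, Itgax at -0.36 and Batf3 at -0.85. The sum of the 5 measured markers was 546.0 to 1611.1 in failing hearts and 493.2 to 1322.9 in controls. The top control value was that of control replicate 4, the highest of all hearts in Itgax, and the next was 755.2. In whole tissue, more cells of a type and more RNA per cell cannot be told apart, and the part of cell makeup in the differences above was not tested.

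Markers of T, B and NK cells had no brighter member and 0 calls; their sum was 590.4 to 1195.4 in failing hearts, 758.7 to 978.4 in the other controls and 20951.4 in control replicate 4, where the leucocyte genes Ptprc and Laptm5 also stood at 11.69 and 12.71 against at most 8.999 and 9.96 elsewhere. In that heart Psmb8, Psmb9, Psmb10 and Psme2 were high while Cd74, RT1-Da and RT1-Db1 were low. Of 8 endothelial markers Vwf rose by 1.10 ± 0.24 and Emcn fell by 0.78 on the log2 scale. Of 8 fibroblast markers 3 rose (Dcn, Postn and Vim), and of 8 heart muscle markers 0 were called (1 lower at an unadjusted p under 0.05). Probe sets at the 3' and 5' ends of Gapdh, a measure of RNA integrity, differed by 0.271 to 0.428 in failing and 0.234 to 0.531 in control hearts, with control replicate 4 lowest; their part in these results was not tested.

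**Figure D5:**
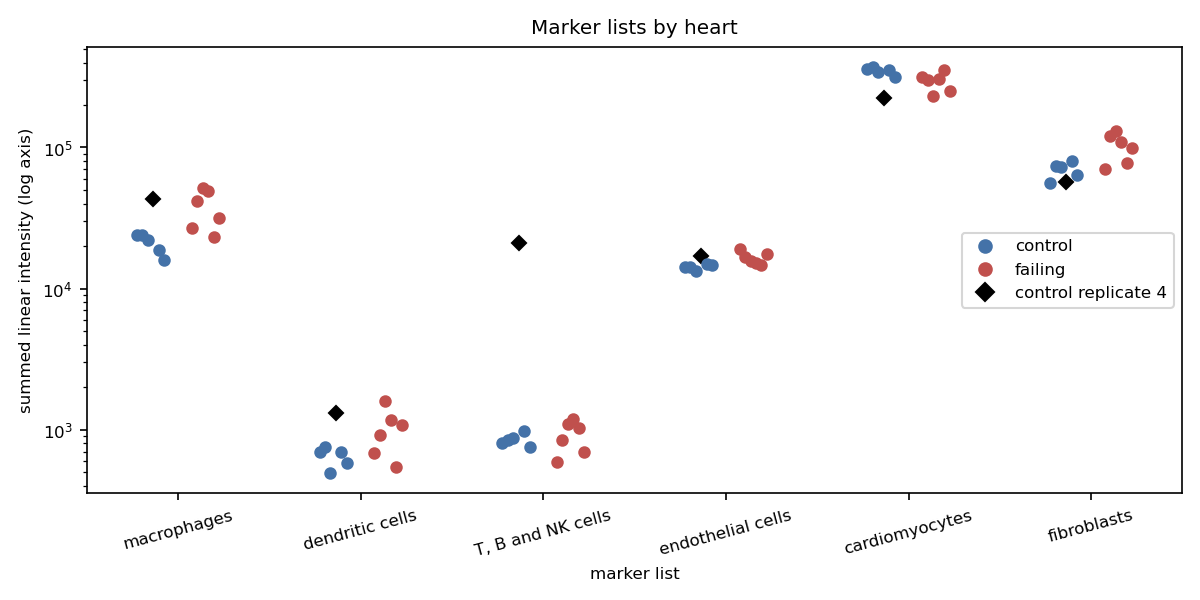
Summed linear intensity (y axis, log scale) of each cell type marker list (x axis) in every control and failing heart, with control replicate 4 as a diamond. In T, B and NK cell markers control replicate 4, at 20951.4, lies far above all other hearts, which reach at most 1195.4. Its macrophage sum of 43079.3 includes 22402.4 from 5 genes that other leucocytes also express, which are the macrophage markers highest in that heart.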

How the data were processed

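The authors deposited 1 table of intensity values per probe set on a linear scale, from 0.1 to 79913.6. RMA is named in the submitters' processing notes (version not given), but the deposited intensity columns are linear and share 1 trimmed mean (2% off each end), so which summary made them is not given in the sources used here. Control probe sets (57) were left out of 31099, and 0 columns belonged to no sample. Genes were named from the array annotation where a probe set had 1 symbol (20826), and 29 of 30 member genes matched the RefSeq table of GRCr8, which was used for names, order and promoters. Log2 intensities, with no offset, were tested in R 4.3.3 with limma 3.58.1 (lmFit, eBayes, group alone, two-sided, Benjamini-Hochberg over all probe sets in the fit, threshold 0.05), over all probe sets and over the brighter 15521. Genes of lists were represented by their brightest probe set, the brighter genes being those with a mean log2 of at least 8.212. Values are given for called members, members with an unadjusted p under 0.05 and the brightest probe set of every other member gene. Members, lists and tests were chosen with earlier results of these data known. The fits were checked on simulated data. Alternatives covered the variance model, array weights, normalization, an offset, 1 probe set per gene, an exact permutation test, a replicate block and each heart left out; within-heart differences and the split of the macrophage markers were added later, with the values in view. Figures used matplotlib 3.10.9.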

Additional observations from a re-analysis of the deposited data

Results flagged for a closer look

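In 9 of 94 groups of 6 hearts the highest or lowest heart stood off from the nearest other by a share of the group's range above Dixon's 95% critical value, which chance alone exceeds in about 1 of 20 groups. Control replicate 4 accounted for 5 of them (log2 intensities throughout). It was the highest control in Psmb8 at 10.77 (next 9.529), Psmb9 at 10.76 (next 9.853), Psmb10 at 10.24 (next 9.278) and Psme2 at 11.53 (next 11.15), and the lowest in Cd74 at 12.22 (next 13.29). Failing replicate 5 was the lowest failing heart in RT1-CE5 1370972_x_at at 7.455 (next 8.175) and in the dim RT1-Bb 1371033_at at 1.322 (next 4.485). Control replicate 2 was the lowest control in the dim probe sets Psme1 1394006_at, at 3.733 (next 5.878), and RT1-Db1 1370382_at, at 2.678 (next 5.229).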

How the results depend on the processing

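The calls rest on few hearts and on the filter for brightness. With trend and robust variance, class I and class II each had 1 probe set called higher over all probe sets, against 0 otherwise. The trend and robust fit called 373 of all 31042 probe sets higher and 175 lower, so these counts are not specific to the 2 classes. Among the brighter probe sets the class I count of 2 became 0 with 1 probe set per gene, with the replicate block and with the exact permutation test; the class II count of 1 became 2 with array weights, and 0 with 1 probe set per gene and with the exact permutation test, which passed none of the 15521 after adjustment, although 3786 of them had an unadjusted p under 0.05. The fit with array weights called 1203 of the 15521 higher and 1067 lower, and the replicate block called 222 and 59. With 1 probe set per gene, Tap2 and RT1-DMa fall under the brightness limit and B2m is represented by 1367595_s_at. Leaving out 1 heart gave 0 to 2 for class I and 0 to 3 for class II, 0 to 0 for every count over all probe sets or of lower calls, and medians of -0.20 to -0.071 and 0.11 to 0.51. Same-numbered hearts deviated together in 1 of 6 pairs (r from -0.060 to 0.232), and in 2 of 6 the failing heart matched its own number best among controls. Such correlations cannot settle whether the numbers pair the hearts, and the labels do not say. Under the replicate block B2m had an adjusted p of 0.0792 and Tap2 of 0.0566, while RT1-DMa kept its call at 0.0333. No called member changed sign under any setting run, and 13 of the 44 uncalled ones did. The 95% intervals of the 14 dim member probe sets reached 0.549 to 1.96 to either side, so smaller differences in them are not resolved, and scaling to a common mean would hide a shift shared by most genes.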

Other observations

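Of the 6 probe sets that carry several RT1 symbols and were therefore left out, 3 were among the brighter ones. The probe set 1371267_at, annotated to RT1-A, RT1-CE16 and RT1-A1, was at 7.43 ± 0.15 in control and 6.76 ± 0.72 in failing hearts, a difference of -0.68 ± 0.29 (limma, unadjusted p = 0.0380, adjusted p = 0.136 among the brighter probe sets). The probe set annotated to RT1-A1 and RT1-A2 differed by -0.02 ± 0.45, and that annotated to RT1-A, RT1-CE5, RT1-CE7, RT1-CE11 and RT1-CE13 by -0.20 ± 0.23. The dim chemokine Cxcl9, an interferon gamma target, was at 6.91 ± 0.44 in control and 5.84 ± 0.56 in failing hearts (-1.08 ± 0.28, unadjusted p = 0.00219), opposite in sign to the differences of Ifngr1 and Jak2. The dim dendritic cell gene Flt3 was at 3.97 ± 0.49 and 5.76 ± 1.09 (1.79 ± 0.46, unadjusted p = 0.00207), while Itgax, Batf3 and Clec9a, also dim, differed by -0.36, -0.85 and 0.35. The dim T cell marker Cd8a differed by -2.07 ± 0.67 (unadjusted p = 0.00952) and Cd4 by 0.49 ± 0.19 (unadjusted p = 0.0233), while Cd8b, Cd3g and Cd3d differed by 0.82, 0.72 and 0.49 and Cd3e by -0.49. These dim genes were outside the fit over the brighter genes, and no gene passed adjustment over all genes.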
